A study of Mus musculus with 5 samples.

Results

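The data described here are the 2 Input libraries of a study of RNA bound by the cap-binding protein eIF4E in the developing mouse brain. They are cytoplasmic lysate taken before any precipitation, and they were chosen by their labels alone, as the 2 Input samples among the 5 samples of the series. Both came from wild-type mouse embryos of embryonic age E13.5. Cerebral cortices were dissected and dissociated with enzymes, the cells were opened in a buffer with the mild detergent NP-40, and what stayed in solution after brief slow centrifugation, which pellets nuclei, served as the cytoplasmic fraction. The sample titles name the neocortex and the tissue field names the forebrain, and the libraries are labelled biological replicates 1 and 2. The labels do not say how many embryos or litters went into each. No precipitate enters any value below, so the account is of which messages made up the cytoplasmic RNA of this tissue and how far the 2 libraries differed.

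At this stage the mouse cortical wall holds radial glia, the stem cells that line the ventricle, together with intermediate progenitors that divide away from it and newborn excitatory neurons that settle above them. Inhibitory interneurons are born in the ganglionic eminences below the cortex and migrate in, while Cajal-Retzius cells lie at the surface and secrete reelin. Blood vessels, meninges and microglia are of other origin. A cytoplasmic lysate holds messages that have left the nucleus, with those on ribosomes among them. In tissue of mixed cells, fewer cells of a type and less RNA per cell cannot be told apart.

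The table lists 49875 gene IDs, each with a deposited value that is treated here as an RSEM abundance estimate per transcript length, with no counts, so depth is unknown. The values summed to 838759 in replicate 1 and 848550 in replicate 2. Whether the table holds every gene that was quantified is not known, so each share below is of the abundance listed. Counting a gene as detected at a value of 1 or more in both libraries, 11165 genes were detected, which is 22.4% of all IDs. Of the 21203 IDs that RefSeq lists as protein-coding genes, 10239 were detected, or 48.3%. A further 804 IDs reached 1 in only 1 of the libraries, with a median mean of 0.995. The highest mean among them was 50.2, for Tma7-ps. Protein-coding genes held 95.2% of the summed abundance in each library. Long noncoding RNAs held 0.615% in replicate 1 and 0.582% in replicate 2, and pseudogenes 3.12% and 3.15%.

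A small number of genes carried most of the abundance. The 10 most abundant genes held 10.8% ± 0.0215 of the summed value (SD, n = 2), the 100 most abundant 32.8% ± 0.191 and the 1000 most abundant 70.8% ± 0.244. In replicate 1, 321 genes made up 50% of the total, and in replicate 2, 313 genes. The median detected gene had a mean of 12.2, while 1499 genes reached 100 and 100 genes reached 1000. The same genes led in both libraries, with 98 of the 100 most abundant and 979 of the 1000 most abundant shared.

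**Figure D1:**
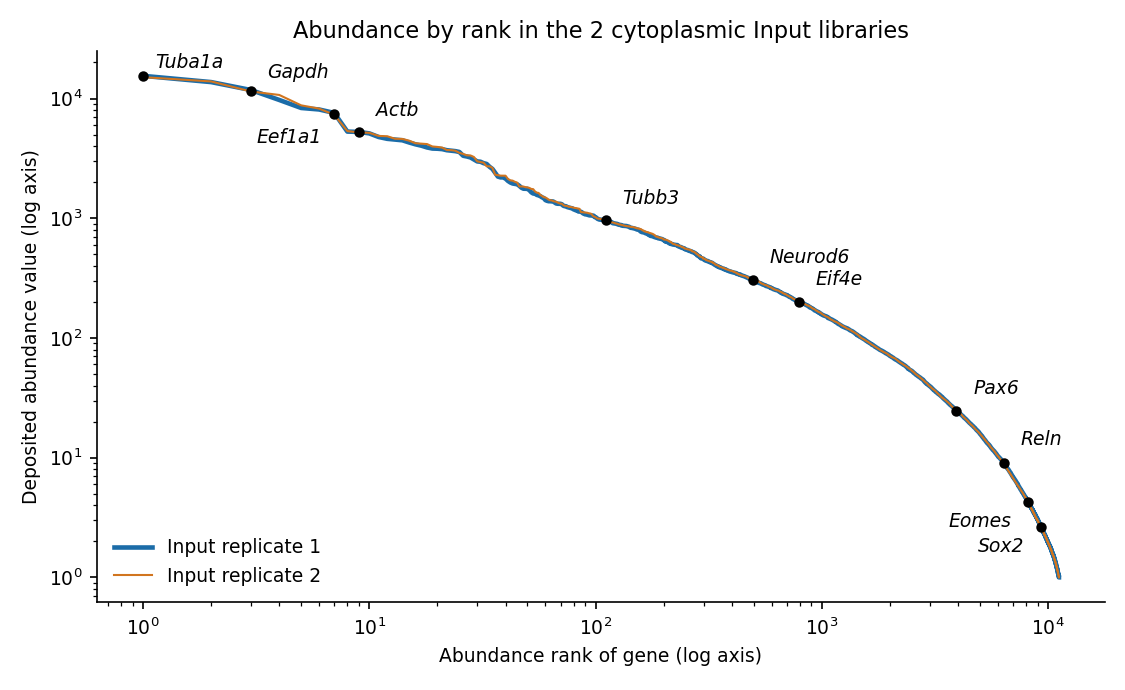
Abundance value of each gene (vertical, log axis) against its rank (horizontal, log axis) in Input replicate 1 (blue) and replicate 2 (orange), for the 11165 genes at 1 or more in both; black points mark named genes at their mean. The curves of the 2 libraries lie on each other, from Tuba1a at a mean of 15280 to Sox2 at 2.62, near the lower end.

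The most abundant message was Tuba1a, the alpha-tubulin of young neurons and dividing neural cells, at 15475 in replicate 1 and 15086 in replicate 2. It alone was 1.81% of the summed abundance. Ftl1, the light chain of the iron store ferritin, followed at 13719 and 13890, and the glycolytic enzyme Gapdh at 11780 and 11449. The alpha-globin Hba-a1 was the fourth, at 9729 and 10714. These 4 genes stood in the same order in both libraries, and Gapdh and Hba-a1 lay closer together in replicate 2. Tuba1a lies on chromosome 15 at 98949847 to 98953501, Ftl1 on chromosome 7 at 45457944 to 45459886, Gapdh on chromosome 6 at 125161852 to 125166467 and Hba-a1 on chromosome 11 at 32283672 to 32284486, by RefSeq on GRCm38.p6.

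The rest of the 30 leading genes were mostly housekeeping messages of growing cells. Ppia, the peptidyl-prolyl isomerase cyclophilin A, had a mean of 8554 ± 305.1 (SD, n = 2), the ribosomal stalk protein Rplp0 8170 ± 97.6 and the elongation factor Eef1a1, which brings aminoacyl-tRNA to the ribosome, 7446 ± 189.1. Actb, cytoplasmic beta-actin, stood at 5235 ± 34.7 and Atp5b, the catalytic beta subunit of ATP synthase, at 5143 ± 38.8. The ribosomal proteins Rps2, Rpl15, Rps14, Rpl10 and Rps9 had means between 3780 and 4807, and Rpl32 had 3223. Chromatin was represented by Ptma, the acidic nuclear protein prothymosin alpha, at 4462 ± 22.6 and by the histone variant gene H2az1 at 4154 ± 14.5. The cell cycle was represented by Cdk4, the kinase that partners D-type cyclins, at 4117 ± 116.3. Antioxidant and iron genes were Prdx2 at 3938 ± 52.9 and Fth1 at 3703 ± 2.48. Cytoskeletal genes were Tubb5 (3747), Cfl1 (3650), Tmsb10 (3547) and Tuba1b (2984). The remaining members were the beta-like globin Hbb-y (4702), the imprinted brain gene Nnat (3384), the ubiquitin gene Ubb (3315), Oaz1, the antizyme that restrains polyamine synthesis (3233), Pkm, the last enzyme of glycolysis (2955), and Ubb-ps (5320).

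Ubb-ps is annotated as a transcribed pseudogene of Ubb, and other pseudogenes also ranked high. Rps2-ps13, a pseudogene named for Rps2, had values of 2143 and 2130 in the 2 libraries, and the predicted pseudogene Gm13394 had 4606 and 4611. The division of abundance between a gene and its near-identical copies is therefore uncertain. The 10 rows named as Rps2 pseudogenes summed to 2319 beside 4807 for Rps2. Rpl34, at 480.2, had less than the rows named as its pseudogenes, at 586.1. All of that was Rpl34-ps1, which RefSeq lists as protein-coding despite its name. For most other ribosomal proteins the named copies held little: Rpl31 was at 94.7 with 23 named copies that summed to 3.6. Rows under predicted names, such as Gm13394, do not enter these sums. A small sum therefore does not show that little abundance was assigned to copies.

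The 5′ ends of these genes are shown because initiation factor binding and growth control of translation both act there. Messages of the 5′ terminal oligopyrimidine (TOP) class, which encode ribosomal proteins and elongation factors, begin with C and a run of C or T. RefSeq promoter windows, from 250 bases before to 50 after the annotated start on GRCm38.p6, were found for 83 of the 100 most abundant protein-coding genes, in 103 windows. Among those windows 9, or 8.74%, began at the annotated start with C and at least 4 further C or T on the transcribed strand. The share was 2.33% of the 10735 windows of all detected protein-coding genes, 2.51% of all 32851 windows, and 20.5% of the 73 windows of ribosomal protein genes. With ribosomal proteins left out, it was 1.80% of the 111 windows of the 100 most abundant other genes. The 5 most abundant genes with such a start are given below from 35 bases before to 25 after the start, with the C and the run in capitals.
Tuba1a: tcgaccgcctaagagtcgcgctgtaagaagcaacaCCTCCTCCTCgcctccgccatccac
Rpl15: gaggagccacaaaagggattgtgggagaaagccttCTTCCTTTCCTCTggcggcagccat
Rps6: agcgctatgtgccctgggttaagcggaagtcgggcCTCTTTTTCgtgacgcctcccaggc
Rps27: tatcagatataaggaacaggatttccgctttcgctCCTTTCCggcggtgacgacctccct
Rack1: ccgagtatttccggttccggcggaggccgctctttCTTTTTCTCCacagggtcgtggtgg
Tuba1a (chr15:98953477-98953536, minus strand) is no ribosomal gene, and its run is made of CCT repeats. Rpl15 (chr14:18270962-18271021, minus strand), Rps6 (chr4:86857343-86857402, minus strand) and Rps27 (chr3:90213624-90213683, minus strand) encode ribosomal proteins, and Rack1 (chr11:48800325-48800384, plus strand) a scaffold on the small subunit.

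The letters TATAAA, the core of the TATA box that positions the start of transcription, were searched on the transcribed strand of the same windows. They were in 10 of the 103 windows of the 100 most abundant genes, or 9.71%, beside 3.95% of the windows of all detected protein-coding genes and 8.32% of all windows. Counting the letters on either strand gave 11.7%, 6.64% and 13.6%. The median GC content was 60.7% in the windows of the 100 genes, 61.0% in those of detected genes and 52.7% in all windows, so the whole table differs in base composition from both. The most abundant genes with these letters close to the start were Ftl1, Ppia, Rplp0, Rps2 and Oaz1, shown over the same stretch with TATAAA in capitals.
Ftl1: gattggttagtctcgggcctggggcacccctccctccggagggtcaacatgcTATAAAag
Ppia: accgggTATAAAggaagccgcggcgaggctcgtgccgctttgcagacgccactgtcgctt
Rplp0: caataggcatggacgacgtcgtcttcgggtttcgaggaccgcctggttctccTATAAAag
Rps2: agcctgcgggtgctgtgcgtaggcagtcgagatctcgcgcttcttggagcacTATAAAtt
Oaz1: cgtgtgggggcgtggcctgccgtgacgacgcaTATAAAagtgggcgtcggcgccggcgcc
In Ppia (chr11:6415832-6415891, plus strand) the letters lie before the annotated start, where a TATA box is usually found. In Ftl1 (chr7:45459862-45459921, minus strand), Rplp0 (chr5:115559432-115559491, plus strand) and Rps2 (chr17:24720028-24720087, plus strand) they lie after it, and in Oaz1 (chr10:80826621-80826680, plus strand) they touch it. The Rps2 window belongs to a start inside the gene, which begins at 24718121. A window without an oligopyrimidine start says only that these letters are not at that position.

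Messages of the translation apparatus formed the largest of the classes examined. The 49 genes of large ribosomal subunit proteins held 5.22% of the abundance in replicate 1 and 5.46% in replicate 2, and the 34 of the small subunit 4.03% and 4.23%. All 83 were detected, and 69 of them, 41 and 28, had a mean of 100 or more, a level that 6.8% of protein-coding IDs reached. Their levels were unequal, although most of these proteins are present once in each ribosome. Rplp0, Rpl15 and Rpl10 led the large subunit, at 8170, 4446 and 3874, while Rpl30 was lowest at 13.3 and 16.6 in the 2 libraries. Rps2, Rps14 and Rps9 led the small subunit at 4807, 4026 and 3780. The mean of Rplp0 was 547-fold that of Rpl30. This order was held in both libraries: across the 83 genes the Pearson correlation of log2(value + 1) was 0.998, a description across genes with no test, and the widest difference between libraries was 1.35-fold, in Rps21 (68.7 and 50.9). Across the 83 genes the Spearman correlation between level and genomic span was 0.13, again a description.

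Elongation and initiation factors followed. The 22 genes of elongation factors and other TOP messages held 1.79% ± 0.0302 of the abundance, led by Eef1a1, by the exchange factor subunit Eef1b2 (1453) and by Btf3 (1102), which acts on nascent chains. The lowest was the snoRNA host Snhg1, at 2.74 and 3.24. The 42 initiation genes held 1.25% ± 0.0151, and 41 were detected. Eif5a, which helps ribosomes through difficult peptide bonds, led at 2702 ± 17.2, before the helicase Eif4a1 (1543) and the eIF3 subunit Eif3i (859), and Eif3k was lowest among those detected at 3.39 and 6.45. Eif4e itself, the cap-binding protein used as bait elsewhere in the study, stood at 197.8 and 205.0, rank 789 of all IDs. Its scaffold partner Eif4g1 had 101.9 and 95.9, and the poly(A)-binding protein Pabpc1 had 40.5 and 42.4. On this scale the helicase Eif4a1 was 38.8-fold above its relative Eif4a2.

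Energy metabolism was the next large group. All 77 nuclear genes of the respiratory chain were detected, with 3.61% of the abundance in replicate 1 and 3.71% in replicate 2, and 53 had a mean of 100 or more. Atp5b, the ATP synthase subunit Atp5g2 (1601) and the cytochrome oxidase subunit Cox4i1 (1565) led, and the complex I subunit Ndufa1 was lowest at 4.95 and 3.84. The 13 messages encoded by mitochondrial DNA held 0.506% ± 0.0118, led by mt-Nd1 (919), mt-Co1 (848) and mt-Cytb (687). The lowest one detected was mt-Nd3, at 9.98 and 8.43. mt-Nd4l, a gene that shares bases with mt-Nd4 on the mitochondrial chromosome, was listed at 0 in both libraries, so that a 0 in this table is not read as absence. The mitochondrial rRNAs mt-Rnr2 and mt-Rnr1 had means of 941 and 272. Glycolysis, which supplies much of the energy of embryonic progenitors, held 2.65% ± 0.0535 in 22 genes, all detected. Gapdh, Pkm and the lactate dehydrogenase subunit Ldha (1637) led, and the platelet-type phosphofructokinase Pfkp was lowest at 2.65 and 2.81. Eno1, the broadly expressed enolase, was 76.4-fold above Eno2, the enolase of mature neurons.

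**Figure D2:**
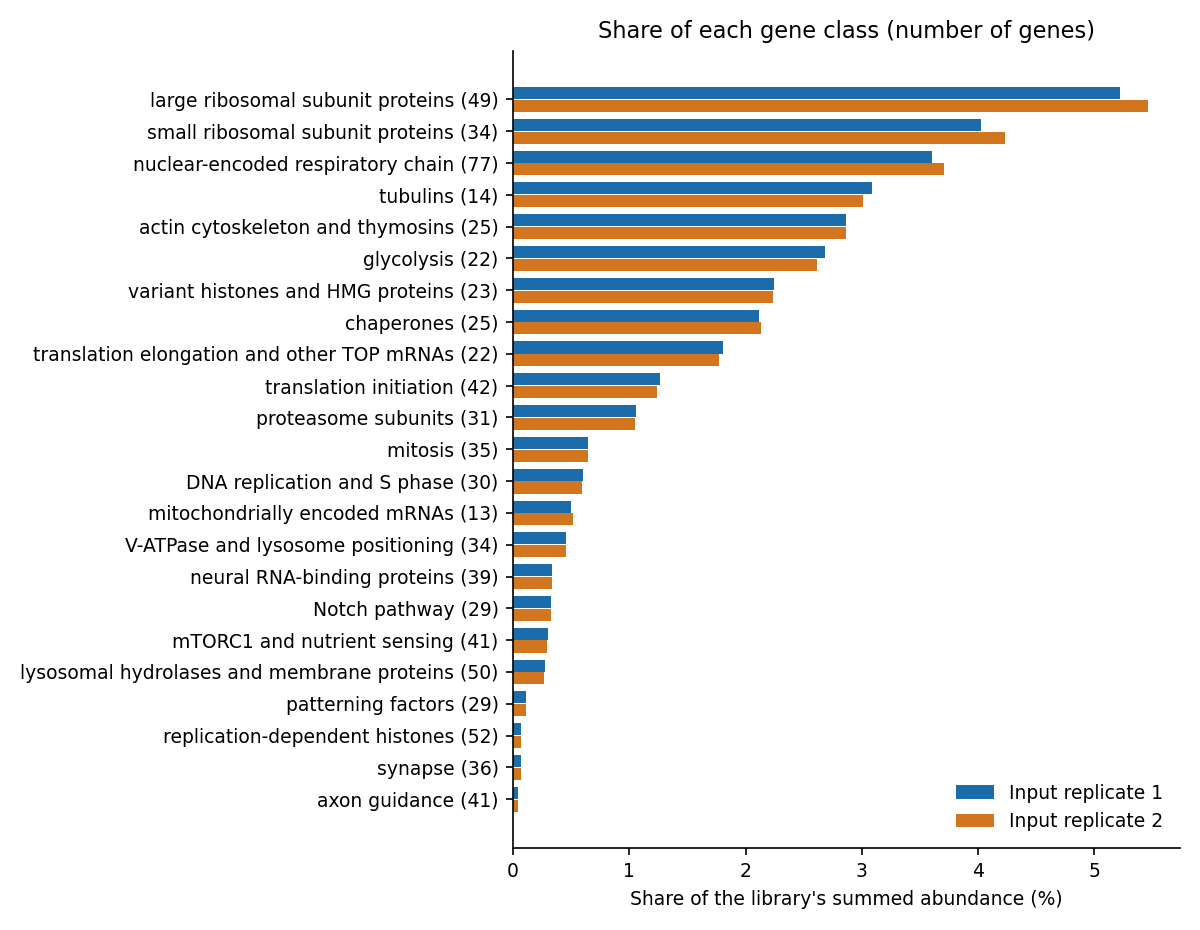
Share of each library's summed abundance (horizontal, percent) held by 23 of the 27 functional gene classes, with the number of genes in brackets. Blue bars are Input replicate 1 and orange bars replicate 2. Among the classes drawn, large ribosomal subunit proteins stand first at 5.22% and 5.46%, and synapse and axon guidance genes last.

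Cytoskeletal messages, which serve division, migration and process growth, were also abundant. The 14 tubulins held 3.05% ± 0.0563 of the abundance, and 59.4% of that was Tuba1a, which was 5.12-fold above Tuba1b and 4.08-fold above Tubb5. The lowest detected tubulin was Tubb6 at 14.9 and 14.6. The platelet tubulin Tubb1 was at 0.27 and 0.22. The 25 actin, thymosin and related genes held 2.86% ± 0.00432. Actb led and was 2.84-fold above Actg1, followed by the actin-severing cofilin Cfl1 and by the thymosin Tmsb10, which binds actin monomers and was 2.11-fold above Tmsb4x. The lowest detected gene of the list was Capza1, a capping protein subunit, at 19.1 and 18.98.

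Protein folding and turnover genes were detected throughout. The 25 chaperone genes held 2.13% ± 0.00958, led by Ppia, by the constitutive heat shock protein Hspa8 (2355) and by Hsp90ab1 (1274), with Hspa4 lowest at 27.6 and 25.8. The 31 proteasome genes held 1.06% ± 0.00420 and were all detected. The highest, the ubiquitin receptor Psmd4 at 847, was 22.5-fold above the lowest, Psmd12 at 37.6 and 37.7. Psmb2 (770) and Psma7 (698) were next after Psmd4.

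Chromatin and cell cycle messages were abundant with sharp differences inside each list. The 23 genes of variant histones and HMG proteins held 2.24% ± 0.0115, with Ptma, H2az1 and H2az2 (2005) highest and Hmgn5 the lowest detected at 1.24 and 1.46. Replication-dependent histones, whose messages lack a poly(A) tail, held 0.0672% ± 0.00494 of these poly(A)-primed libraries in 52 genes. They were led by the linker histone H1f2 at 70.6 and 69.5, then H3c11 (54.0) and H1f5 (51.5). Of the 52, 33 were detected, and H4c3 was the lowest of them at 1.21 and 2.32. All 30 genes of DNA replication and S phase were detected, led by Ccnd2, the D-type cyclin of cortical progenitors, at 795, by the dUTPase Dut at 588 and by the replicative helicase subunit Mcm5 at 341, and Hells was lowest at 3.38 and 3.06. Of 35 mitosis genes, 34 were detected. The ubiquitin-conjugating enzyme Ube2c, which drives exit from mitosis, led at 945.9 and 966.5, with Cdc20 (732), an activator of the same pathway, and Birc5 (536), survivin of the chromosomal passenger complex, after it. The widely used proliferation marker Mki67 was at 0.95 and 0.75, so that Ube2c was 1125-fold above it in the mean, and the lowest detected member was the kinesin Cenpe, at 1.63 and 1.88. Folds between genes, here and elsewhere, are ratios of deposited values, and how far they reflect message numbers was not tested.

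Marker genes of cortical cell types were examined next, in 17 lists that hold 338 different genes in the table. Of these 215 were detected. The counts below stand beside the 48.3% detected among all protein-coding IDs, and those for interneurons (53.1%), choroid plexus and hem (44.4%), astrocytes (60%), Cajal-Retzius cells (64.7%) and mural cells (64.3%) lie nearest to it. These lists were chosen with earlier results of these data known, so the counts are descriptions only. Radial glia genes were detected in 28 of 30 cases and held 0.490% of the abundance in each library, with a median level of 21.9 over the whole list, beside 0.94 over all protein-coding IDs. Phgdh, the first enzyme of serine synthesis, led at 910.0 and 901.3, before the intermediate filament gene Vim at 823.4 and 845.8 and the Notch effector Hes5 at 600.1 and 610.5. The cortical selector Emx1 had 219.2 and 222.0, and Fabp7 and Nes, standard radial glia markers, had means of 60.1 and 50.03. The transcription factors used most often to name these cells were lower: Pax6 was at 23.6 and 25.9 and Sox2 at 2.65 and 2.58. Veph1 was the lowest of those detected, at 2.39 and 2.64. Tnc and Mki67 were under 1 in both libraries.

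Intermediate progenitor genes held 0.378% ± 0.00252, and 22 of 23 were detected, with a median of 49.5. Hes6, which opposes Hes1 activity, led at 936.9 and 954.8, followed by the growth-arrest gene Gadd45g at 469.8 and 472.4 and by Mfng, a glycosyltransferase that modifies Notch receptors, at 370.7 and 373.6. The proneural genes Neurog2 and Neurog1 had means of 57.9 and 55.7. Eomes, the defining factor of this cell type, was at 3.93 and 4.67, and the mean of Hes6 was 220-fold higher. Penk was the lowest detected, at 1.28 and 2.05, and Neurod4 was under 1 in both libraries, at 0.57 and 0.53.

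Genes of newborn and deep-layer neurons held 0.542% ± 0.0102, and 38 of 40 were detected, with a median of 25.4. Tubb3, the neuronal beta-tubulin, led at 945.7 and 979.5, before the endosomal protein gene Nsg1 (856.0 and 835.1) and the stathmin Stmn3 (665.5 and 654.6). Neurod6, a factor of postmitotic excitatory neurons, was at 311.2 and 302.4. The deep-layer factors Fezf2, Bcl11b and Tbr1 had means of 86.8, 18.6 and 16.1. Dcx, the microtubule protein of migrating neurons, was at 6.48 and 5.86, 156-fold below Tubb3. Foxp2 was the lowest detected at 1.03 and 1.82, and Zfpm2 and Grin2b were under 1 in both libraries. Among 12 upper-layer factors, whose neurons are mostly born later, 9 were detected, and the list's median was 3.58. Its leader Lhx2 (217) is also a progenitor gene, Cux1 (50.4) and Pou3f3 (14.9) came next, and Pou3f1 was the lowest detected at 2.16 and 2.23. Rorb, Inhba and Unc5d were under 1 in both libraries.

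Cajal-Retzius genes were detected in 11 of 17 cases and held 0.00775% ± 0.0000971. Tbr1 and Calb2, both shared with other neurons, led at 16.1 and 14.9. Reln, which encodes reelin, was at 8.74 and 9.19, and the p53 relative Trp73 had a mean of 1.97. Lhx1 was the lowest detected at 1.55 and 1.00. Ebf3, Zic2, Barhl2 and Ndnf were among the 5 genes under 1 in both libraries.

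Genes of interneurons and the ganglionic eminences were detected in 17 of 32 cases and held 0.0234% ± 0.000468, with a median of 1.37. Meis2 led at 48.2 and 50.4, before the neuropeptide gene Sst at 29.4 and 34.4. Meis2 is also expressed by cortical cells. Dlx2, a factor of the ganglionic eminences and their migrating progeny, was at 10.7 and 10.3, and the cortical factor Emx1 was 20.95-fold above it. Gad2, an enzyme of GABA synthesis, was at 1.43 and 0.99, and Gsx2 was the lowest detected at 1.52 and 1.11. Of the 11 genes under 1 in both libraries, Nkx2-1, Lhx8 and Gsx1, factors of the ventral eminences and striatum, were listed at 0.

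Glial genes that appear later in development were low. Of 13 oligodendrocyte precursor genes, 3 were detected, Cnp (8.91), Mbp (8.37) and Bcas1 (2.85), and the lineage factors Sox10 and Nkx2-2 were listed at 0. Olig2 was at 0.31 and 0.49. Of 10 astrocyte genes, 6 were detected, led by Apoe (82.0), Fgfr3 (50.9) and the gap junction gene Gja1 (19.5), all of which radial glia or other cells of the embryo also express, and Aldh1l1 was the lowest detected at 2.84 and 2.04. Gfap was at 0.05 and 0, and S100b was listed at 0.

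Markers of non-neural cells were detected as well. Erythroid genes held 2.07% of the abundance in replicate 1 and 2.23% in replicate 2, and nearly all of it was globin: the 7 globin genes held 2.04% and 2.19%. The embryonic beta-like globin Hbb-y was at 4534 and 4870, 3.27-fold above the adult gene Hbb-bs (1439). Hba-a1 and Hba-a2 encode near-identical messages, so their values of 10221 and 171 are an uncertain split. The red-cell factors Klf1 (2.21) and Gata1 (0.415) were low, and Klf1 was the lowest of the 16 genes detected among 19. Endothelial genes held 0.0804% ± 0.00113, with 18 of 21 detected. Ly6e (205) and the glucose transporter Slc2a1 (174), which other cells share, led with Egfl7 (60.6), the tight-junction gene Cldn5 was at 58.4 and 59.3, and Flt1 was the lowest detected at 2.08 and 2.10. Tek and Erg were under 1.

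The list of meninges and mesenchyme was detected in 15 of 21 cases and held 0.0907% ± 0.00185, led by the retinoic acid binder Crabp2 (300.2), Sparc (168) and the collagen gene Col3a1 at 77.1 and 61.4, with Aldh1a2 lowest at 3.86 and 2.59. Twist1, Foxc1, Foxc2 and Pdgfra were under 1 in both libraries. Mural cell genes were detected in 9 of 14 cases, with Vtn (60.3), Ndufa4l2 (18.5) and Myl9 (17.4) first and Acta2 lowest at 1.36 and 1.11. Cspg4, Des, Anpep and Abcc9 were among the 5 under 1. Microglia and macrophage genes were detected in 14 of 20 cases and held 0.0111% in replicate 1 and 0.0132% in replicate 2, led by the complement genes C1qa (16.3 and 20.2) and C1qb (16.6 and 18.6) and by the chemokine Pf4 (13.2 and 21.9). Ctss was the lowest detected at 1.06 and 1.25, and Trem2, P2ry12, Mrc1 and Ptprc were under 1.

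Markers of other regions were mostly under 1 or listed at 0. All 20 genes of hindbrain and spinal cord, 14 of them Hox genes, were listed at 0 in both libraries. Of 18 midbrain and diencephalon genes 2 were detected, Tcf7l2 (12.4) and Dbx1 (1.25), and Foxa2, Pitx3, Sim1 and Gbx2 were among the 10 listed at 0. Of 20 genes of liver, muscle and skin 3 were detected, Ttr (13.96), Krt18 (2.02) and Apoa1 (1.08), and Alb, Myod1, Myog and Apob were listed at 0. Choroid plexus and hem genes were detected in 8 of 18 cases, led by Ttr, Msx1 (13.6) and Folr1 (6.02), with Wnt3a the lowest at 1.29 and 1.38. Lmx1a, Kl, Clic6 and Wnt2b were among the 7 under 1. Among 29 patterning factors, 22 were detected. Emx1, Lhx2 and Otx1 (85.8), factors of the dorsal telencephalon, led. Dmrt3 was the lowest detected at 2.12 and 2.35, and Fgf8, Shh and Nkx2-1, signals and factors of the rostral and ventral patterning centres, were listed at 0.

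**Figure D3:**
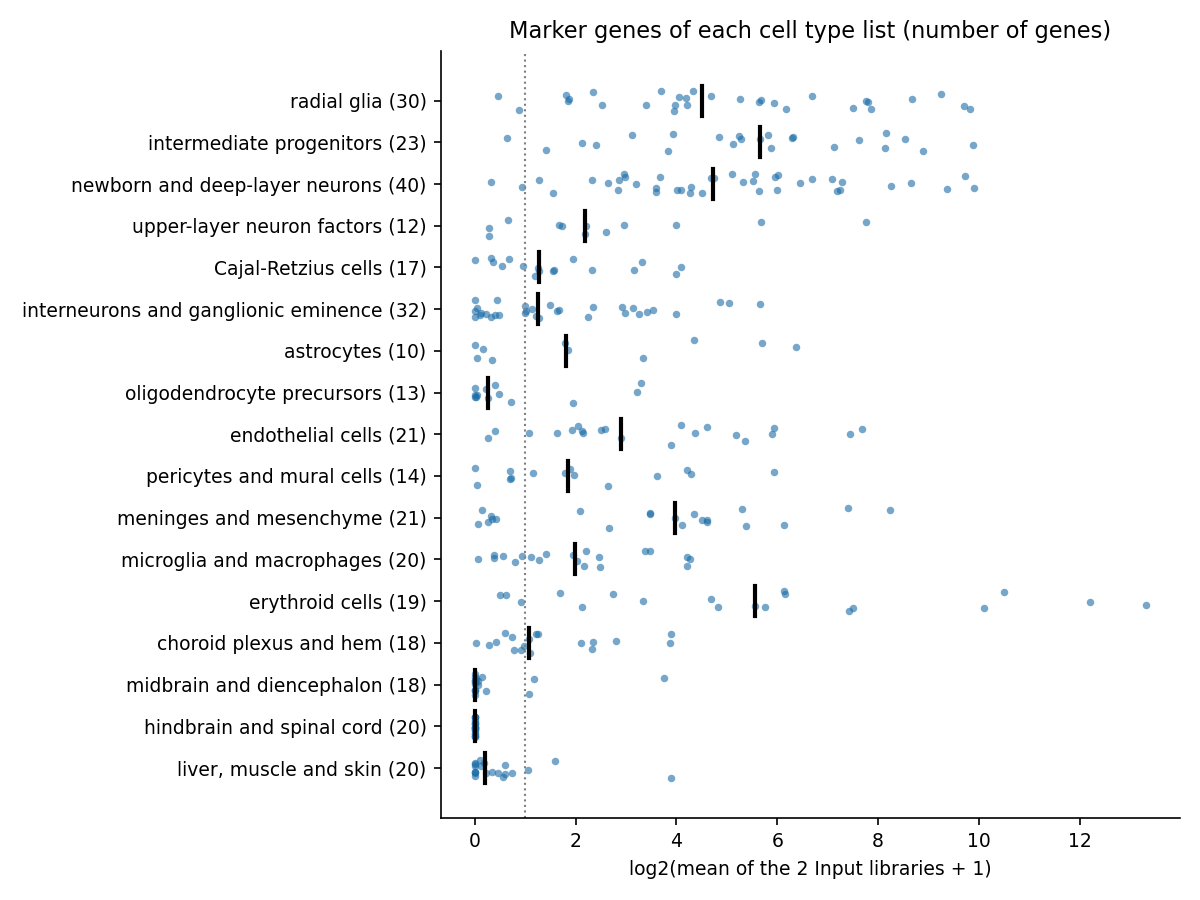
Each point is a marker gene, placed at log2 of its mean over the 2 Input libraries plus 1 (horizontal), in 17 cell type lists (vertical, number of genes in brackets); black bars are list medians and the dotted line is a mean of 1. Radial glia, intermediate progenitor, neuron and erythroid lists lie to the right, and all 20 hindbrain and spinal cord genes lie at 0.

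Signalling and neuronal function lists were examined in the same way. Notch pathway genes were detected in 27 of 29 cases and held 0.329% ± 0.000484, and Hes6, Hes5 and Mfng led. Among the ligands Dll1 and Dll3 had means of 77.0 and 78.2, and Jag1 was under 1. The receptor Notch1 was at 14.8 and 14.01, and the protease Adam10 was the lowest detected at 1.34 and 1.10. RNA-binding proteins of neural cells were detected in 34 of 39 cases. Ptbp1, the splicing repressor of progenitors, led at 729.5 and 718.9 and was 14.02-fold above its neuronal relative Ptbp2, and the cold-inducible genes Rbm3 (405) and Cirbp (390) followed. Qk was the lowest detected at 4.08 and 4.13, and the translational regulator Fmr1 was at 0.61 and 0.49. Synapse genes were detected in 25 of 36 cases and held 0.0671% ± 0.000766, led by the vesicle genes Rab3a (176), Vamp2 (77.7) and Syp (72.4), with Nrxn3 the lowest detected at 1.14 and 1.81. Axon guidance genes were detected in 32 of 41 cases, with the ephrin Efnb1 (108) first, then Plxnb2 (41.4) and the ephrin receptor Epha4 (29.0), and the receptor Robo1 was the lowest detected at 1.18 and 1.12.

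The study's title concerns lysosomes, and lysosomal messages were part of the cytoplasmic pool at moderate levels. Of 50 genes of lysosomal hydrolases and membrane proteins, 47 were detected, and together they held 0.271% ± 0.00364. Psap, the precursor of the saposins that help degrade sphingolipids, led at 457.2 and 458.7, before the cholesterol carrier Npc2 (281) and the tetraspanin Cd63 (260). Lamp1, the usual membrane marker, was at 199.5 and 186.8. The cholesterol exporter Npc1 was the lowest detected, at 1.44 and 1.65. Of 34 genes of the proton pump and of lysosome positioning, 33 were detected, with 0.457% ± 0.000482, and the pump subunits Atp6v0c (1042), Atp6v0b (683) and Atp6v1f (293) were highest, with Borcs7 lowest at 1.97 and 1.27. Of 41 genes of mTORC1 and nutrient sensing, 35 were detected, with 0.297% ± 0.00299. Sec13 (666), which also serves in the nuclear pore and in vesicle coats, led with the mTORC1 substrate Akt1s1 (381) and the Ragulator subunit Lamtor5 (379). Wdr59 was the lowest detected at 1.23 and 1.14, and the lysosomal transcription factor Tfeb was at 0.54 and 0.78.

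The 24 long noncoding RNAs examined, nuclear or imprinted ones for the most part, held 0.150% of the abundance in replicate 1 and 0.116% in replicate 2, a part of what all long noncoding IDs held. Pantr1, a noncoding RNA transcribed beside the gene Pou3f3, was at 1137 in replicate 1 and 865 in replicate 2, and it held 89.3% of the abundance of this list. H19 had a mean of 26.6 and Norad 18.8, and Mirg was the lowest detected at 1.80 and 1.39. Of the 24, 16 were detected, and of 16 snoRNA host genes 13, beside 306 of all 4522 long noncoding IDs. The snoRNA host genes were led by Snhg20 (57.2), Gas5 (29.1) and Snhg17 (28.4). The nuclear RNA Malat1 was at 16.2 and 11.3, so Pantr1 was 72.8-fold above it, and the nuclear RNA Neat1 was at 0.07 and 0.08. Xist, the noncoding RNA of the inactive X chromosome, was listed at 0 in both libraries. Y-linked genes were low: Kdm5d was at 2.27 and 1.99, Eif2s3y at 2.08 and 1.44 and Ddx3y at 0.87 and 0.66.

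Genes that span more DNA were less abundant. Over 10239 detected protein-coding genes the Spearman correlation between RefSeq genomic span and mean level was −0.336, and it was −0.333 in replicate 1 and −0.337 in replicate 2, a description across genes that share a library. The median mean was 33.2 in the quintile of genes with the shortest spans, from 374 to 7715 bases, and 5.79 in the quintile with the longest, from 62805 bases up. Of the shortest quintile 28.2% reached a mean of 100, and of the longest 3.08%. The median span was 4053 bases among protein-coding genes with a mean of 1000 or more and 35886 bases among those between 1 and 3. Genomic span includes introns and is not transcript length, which was not analysed here.

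**Figure D4:**
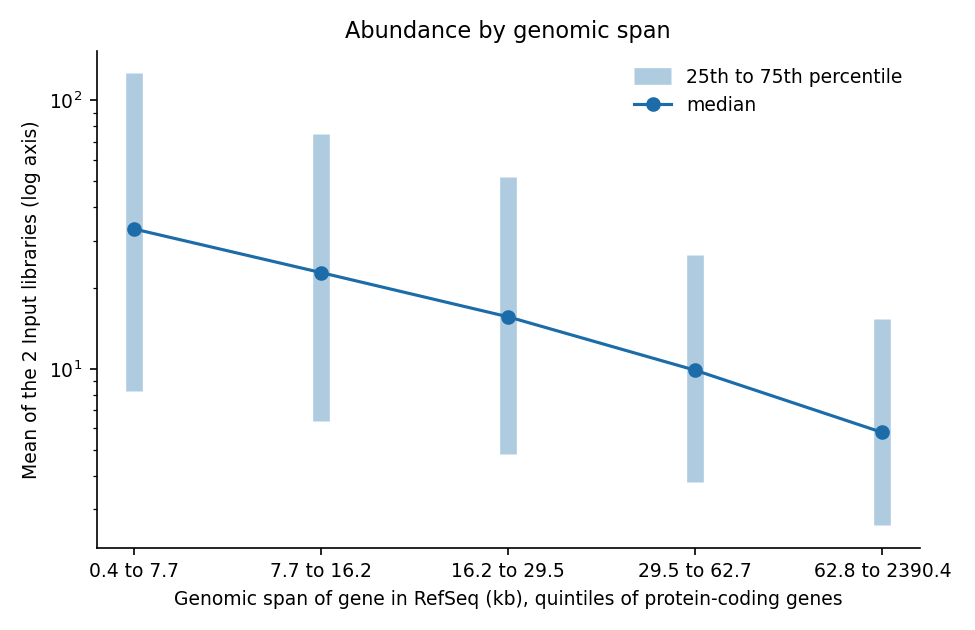
Mean abundance over the 2 Input libraries (vertical, log axis) in quintiles of 10239 protein-coding genes by genomic span (horizontal, kilobases); points are medians and bars run from the 25th to the 75th percentile. The median falls at each step, from 33.2 in the shortest quintile to 5.79 in the longest.

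The 2 libraries were close to each other, and closest among abundant genes. Over the 11165 detected genes, the Pearson correlation of log2(value + 1) was 0.995 and the Spearman correlation 0.992, across genes and without a test, since the group has 2 samples. The SD of the log2 ratio narrowed with abundance, from 0.26 among genes with means of 1 to 3 and 0.27 at 3 to 10, to 0.19 at 10 to 30, 0.13 at 30 to 100, and 0.08 among genes at 1000 or more. Replicate 2 exceeded replicate 1 by over 2-fold in 19 genes, or 0.17%, and was below it by over 2-fold in 20, or 0.179%, and none of these 39 had a mean of 30 or more. Among genes with a mean of at least 100, 98.0% lay within 1.2-fold, while 24.3% of genes with means of 1 to 3 and 22.9% of those at 3 to 10 were further apart than that. All ratios and folds in this paragraph were taken with 1 added to each value. This narrows differences between low values, so the spread among low genes is understated.

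Among detected genes with a mean of at least 10 and no predicted or clone name, the widest difference was in Srgap2, a regulator of neuronal migration and spine growth, at 3.94 in replicate 1 and 30.4 in replicate 2, a 7.70-fold difference. The other 5 genes that were furthest above in replicate 2 were Tmsb15b2, Inpp1, H4c12, Rnasek and Fancc, between 1.69-fold and 1.93-fold. On the other side Vps39, a subunit of the HOPS complex that tethers vesicles to lysosomes, was at 44.7 and 22.7, a 1.97-fold difference. After it came Chn2, Acadsb, Nudc-ps1, Nol7 and Rps2-ps6, down to 1.63-fold. Folds in this ranking are of the values as listed, with nothing added. Genes under 1 in 1 of the libraries do not enter this ranking, among them Tma7-ps, whose mean was 50.2. Among detected genes with a mean of at least 100, the widest were mt-Atp8 (230.2 and 367.2) and the predicted pseudogene Gm8210 (692.5 and 1085). Which gene Gm8210 resembles was not examined.

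Small differences ran together in some classes. Replicate 2 was higher in 47.9% of detected genes, but in 70 of the 83 ribosomal protein genes, with a median log2 ratio of 0.10. After each library was scaled to the same total, 68 of the 83 were higher, and after quantile scaling 61. The median log2 ratio was −0.006 over all detected genes, but 0.028 over those with a mean of 1000 or more. In the quintile of protein-coding genes with the shortest spans it was 0.018. Respiratory chain genes were higher in 52 of 77 cases (median 0.07), snoRNA host genes in 10 of 13 detected, and microglia genes in 13 of 14 detected (median 0.09). The noncoding RNAs were higher in 5 of 16 detected, with a median of −0.16, and neuron genes in 14 of 38, with a median of −0.02. Globins were higher in 6 of 7 genes (median 0.11) and glycolysis genes in 11 of 22. With 1 group of 2 libraries none of these can be tested, and each is small beside a 2-fold difference.

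**Figure D5:**
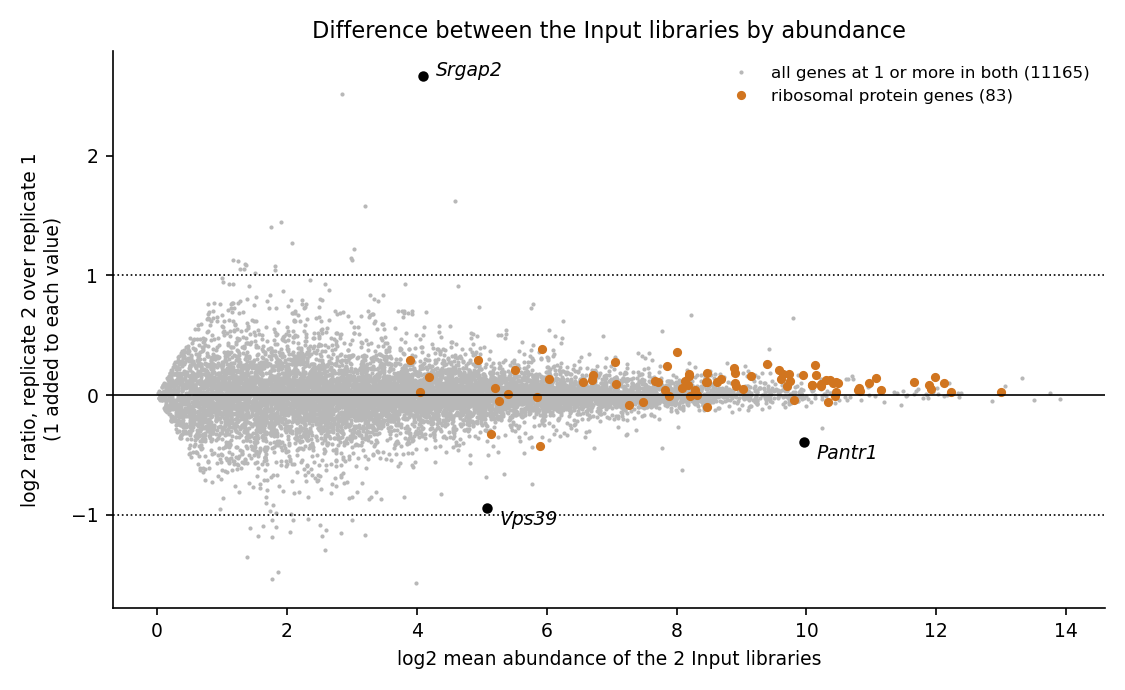
Log2 ratio of Input replicate 2 over replicate 1, with 1 added to each value (vertical), against log2 mean abundance (horizontal) for 11165 detected genes (grey) and 83 ribosomal protein genes (orange); dotted lines mark 2-fold. The spread narrows to the right, 70 of the 83 ribosomal protein genes lie above 0, and Srgap2 lies furthest above.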

How the data were processed

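RNA of 2 cytoplasmic Input samples was made into Smart-seq2 libraries (poly(A)-primed, amplified, without strand or molecular identifiers), per the labels' protocols. The tools STAR 2.7.9a and RSEM 1.3.3 and the build mm10 are listed, without their roles, in the submitters' processing notes. The deposited values are a signal per gene with 2 decimals, made by the authors. Whether it is TPM or FPKM is not given in the sources used here, and both are per length. Of values at 1 or more, 1.03% were whole numbers, so they were not taken as counts. The other 3 sample columns were not used. Repeated rows (286) were dropped, and of rows sharing a symbol the more abundant was used.

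Shares, ranks, means and SDs over the 2 libraries, and log2 ratios with 1 added, were computed in Python 3.11.15 with numpy 2.4.6, pandas 2.3.3 and scipy 1.17.1, and checked on simulated data. There was no test, since 1 group of 2 samples allows none, and whether the replicates came from separate animals is not stated. The 44 gene lists (17 of cell types) hold 1136 genes, of which 1131 were in the table. The members and lists were chosen with earlier results of these data known. Named genes are the 30 most abundant without predicted or clone names, the 3 highest and the lowest detected of each list, and a fixed set of 20. Also named are the 6 widest library ratios each way among detected genes with a mean of at least 10. Other members named were chosen after their values were seen. A few genes that this rule or the lists hold are not reported here. Gene types, places and promoter windows are from RefSeq (GRCm38.p6), matched for 36980 of 49875 IDs by Ensembl ID or symbol. Protein length was not analysed here. Alternatives were other detection levels, denominators, pseudocounts, scalings, numbers of top genes, and each library left out.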

Additional observations from a re-analysis of the deposited data

How the results depend on the processing

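No paired analysis was possible because the 2 Input libraries are 1 group and no result comes from a test between groups. Detected genes numbered 5938 at a value of 10 in place of 1, and detected marker genes 123 in place of 215. Without mitochondrially encoded genes the 10 and 100 most abundant genes held 10.8% and 33.1% of the abundance, and without ribosomal protein genes the top 10, 100 and 1000 held 11.4%, 31.5% and 69.2%. Of 11165 detected genes, 39 were over 2-fold apart between the libraries. This became 83 with 0.1 added before the log, 5 with 5 added, 166 over all listed genes and 16 over genes with a mean of at least 10, including genes under 1 in a single library. Oligopyrimidine starts were in 3.62% of the windows of the 500 most abundant genes and in 1.80% without ribosomal proteins, beside 8.74% in the top 100. The other 55 alternatives for these summary values stayed within the spread or within 1.5 times the reported count. For shares, each of 2 libraries always lies within their SD of the mean. Leaving out a library therefore could not move a share, and those alternatives say nothing about how stable the shares are. Counts of single marker lists moved more, by over 1.5 times in 25 alternatives over 11 lists, all from other detection levels. Choroid plexus and hem genes numbered 8, but 17 at a level of 0.1 and 3 at 5; interneuron genes 17, but 26 at 0.1 and 5 at 10; microglia genes 14, but 5 at 5; and Cajal-Retzius genes 11, but 4 at 5. Shares of 9 classes moved past the small spread between libraries without mitochondrially encoded genes, as the actin class did from 2.86% to 2.88%. Leaving out either library gave 11542 to 11592 detected genes. Ribosomal protein genes higher in replicate 2 numbered 61 of 83 after quantile scaling. Depth is unknown, so low values carry an error that only the 2 libraries show, and 0 is not read as absence. Protein length was not run.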
